A study of Mus musculus with 10 samples.

Results

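The expression of 10 genes of MHC class I antigen presentation was compared between melanomas grown in *Siah2* WT mice and melanomas grown in *Siah2* KO mice. The genes were chosen by symbol, and all 10 had a probe among the 770 genes measured. They were the heavy chains *H2-D1* and *H2-K1*, the nonclassical heavy chain *H2-T23*, the peptide transporter subunits *Tap1* and *Tap2*, the loading chaperone *Tapbp*, the immunoproteasome subunits *Psmb8*, *Psmb9* and *Psmb10*, and the transactivator *Nlrc5*.

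MHC class I molecules carry peptides from inside a cell to its surface, where CD8+ T cells read them. The immunoproteasome cuts proteins into peptides, the transporter moves these into the endoplasmic reticulum, and tapasin, the product of *Tapbp*, helps to load them onto the heavy chain. Nearly all nucleated cells can make these proteins, and interferon gamma raises their genes, in part through Irf1 and Nlrc5.

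Tumors came from YUMMER1.7, a BRAF-mutant mouse melanoma line that lacks *Cdkn2a*, among other changes, and is more immunogenic than its parental line. Cells were injected under the skin of syngeneic male mice a few weeks old, and by the sample labels the tumors were taken at day 11. There were 5 tumors from WT hosts (WT2 to WT6) and 5 from hosts with a germline deletion of *Siah2*, which encodes a ubiquitin ligase (KO1, KO2, KO3, KO5 and KO6). The injected tumor cells were the same line in both groups and kept their own *Siah2*. RNA of whole tumors, 100 ng of each, was counted with the NanoString PanCancer Immune Profiling panel, in which a barcoded probe is counted for each gene without amplification. Values below are normalized counts, that is, counts above background scaled to 20 reference genes in each tumor. The panel as given here has no probe named for *Siah2*, so the genotype of the hosts could not be checked in these values.

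The tumors were mixtures of melanoma, immune and stromal cells, so that fewer cells of a type and less RNA per cell cannot be told apart. Before scaling, the counts above background summed to between 382860 and 581637 per tumor. The scaling factors ran from 0.918 to 1.32 in the WT tumors, and the factors of the KO tumors ran from 1.03 up to 1.60. Of the 770 genes, 241 were higher in KO tumors at an adjusted p under 0.05 and 75 were lower, by limma with Benjamini-Hochberg adjustment. The share of genes called higher was thus 31.3%, and the median log2 fold change of all genes was 0.24.

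On the mouse genome 8 of the 10 genes lie on chromosome 17, in the order *Tapbp*, *H2-K1*, *Psmb9*, *Tap1*, *Psmb8*, *Tap2*, *H2-D1* and *H2-T23*. The other two, *Nlrc5* and *Psmb10*, lie on chromosome 8. The promoters of 5 of the genes are given here, from RefSeq promoters on GRCm38.p6, in which 8 of the 10 genes were matched by symbol. *H2-K1* had 2 windows, and the first is given. Each window runs from 250 bases before the transcription start to 50 bases after it, 5′ to 3′ on the strand of the gene. Capitals mark matches, on either strand, to GAAANNGAA and GAANNGAAA (2 spacings of the interferon-stimulated response element core), TTCNNNGAA (the gamma-activated site), GGGGATTCC (an NF-kB site), TGACGC (like the core of a cyclic AMP response element) and CCAAT. The windows lie at chr17:35262844-35263143, plus strand for *H2-D1*, at chr17:34000298-34000597, minus strand for *H2-K1*, at chr17:36032652-36032951, minus strand for *H2-T23*, at chr17:34187306-34187605, plus strand for *Tap1* and at chr17:34197945-34198244, plus strand for *Psmb8*.
H2-D1: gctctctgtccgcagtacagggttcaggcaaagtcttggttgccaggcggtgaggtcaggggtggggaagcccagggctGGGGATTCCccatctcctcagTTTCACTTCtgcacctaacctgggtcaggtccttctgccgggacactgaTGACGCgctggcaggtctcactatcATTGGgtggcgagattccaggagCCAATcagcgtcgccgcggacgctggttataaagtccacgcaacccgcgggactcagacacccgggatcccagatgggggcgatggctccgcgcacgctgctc
H2-K1: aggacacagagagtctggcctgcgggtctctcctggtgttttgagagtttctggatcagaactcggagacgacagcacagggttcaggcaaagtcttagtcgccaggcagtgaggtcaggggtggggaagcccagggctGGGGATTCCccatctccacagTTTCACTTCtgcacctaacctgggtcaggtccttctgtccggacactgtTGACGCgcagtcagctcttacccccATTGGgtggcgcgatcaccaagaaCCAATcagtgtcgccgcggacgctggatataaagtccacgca
H2-T23: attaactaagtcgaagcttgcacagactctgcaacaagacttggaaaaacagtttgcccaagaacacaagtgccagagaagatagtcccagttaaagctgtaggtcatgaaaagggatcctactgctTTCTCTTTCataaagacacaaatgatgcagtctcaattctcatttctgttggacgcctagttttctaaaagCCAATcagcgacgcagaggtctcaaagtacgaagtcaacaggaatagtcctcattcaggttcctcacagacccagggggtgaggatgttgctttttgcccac
Tap1: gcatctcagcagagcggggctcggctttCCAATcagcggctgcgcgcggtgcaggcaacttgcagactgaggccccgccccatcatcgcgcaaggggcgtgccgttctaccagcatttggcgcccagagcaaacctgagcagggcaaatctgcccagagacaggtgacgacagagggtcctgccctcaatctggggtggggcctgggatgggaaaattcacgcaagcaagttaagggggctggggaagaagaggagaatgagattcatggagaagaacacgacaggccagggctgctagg
Psmb8: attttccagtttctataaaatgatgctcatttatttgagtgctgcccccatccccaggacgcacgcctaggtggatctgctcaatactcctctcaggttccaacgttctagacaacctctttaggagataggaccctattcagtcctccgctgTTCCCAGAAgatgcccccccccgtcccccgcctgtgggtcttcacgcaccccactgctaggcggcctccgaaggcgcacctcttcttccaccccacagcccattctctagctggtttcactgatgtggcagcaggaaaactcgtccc

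The *H2-D1* and *H2-K1* windows held the same motifs in the same order, and their longest shared run was 47 bases. GGGGATTCC and GAANNGAAA stood in these 2 genes among the 8 matched, against 0.296% and 8.68% of all 26994 genes with windows. TGACGC also stood in these 2, against 8.36% of all genes with windows. GAAANNGAA was found in *H2-T23*, 123 bases before its start, and TTCNNNGAA in *Psmb8*, 97 bases before its start. Of all genes with windows, 9.75% held GAAANNGAA and 9.55% held TTCNNNGAA. CCAAT was found in 6 of the 8 genes, against 41% of all genes with windows. *Tap1* and *Psmb9* are transcribed away from each other from starts 226 bases apart, and their windows shared 275 bases, so the *Tap1* window also shows most of the *Psmb9* promoter. Their CCAAT matches are the same bases, read on either strand, so the count of 6 genes holds that site for both. GAANNGAAA and GGGGATTCC were added after the windows had been read. Of the matched genes whose windows are not printed, *Tapbp* and *Psmb9* held only CCAAT, and *Psmb10* held none of the motifs. These matches describe the letters of the windows and not binding in the tumors. Whether the motifs bear on how the genes varied between tumors was not tested.

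All 10 class I genes were higher in KO tumors. Each passed an adjusted p under 0.05 by limma, against the 31.3% of all genes called higher. Their log2 fold changes lay between 0.57 and 1.07, with a median of 0.73 beside 0.24 for all genes. For each of the 10, every KO tumor lay above every WT tumor, a separation that 24.5% of all genes showed. The two-sided exact permutation p was therefore 0.0079 for each, which is the smallest that 5 against 5 tumors can give. The gap between the groups was narrow for some genes, as the lowest KO value was between 1.02 and 1.35 times the highest WT value.

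**Figure D1:**
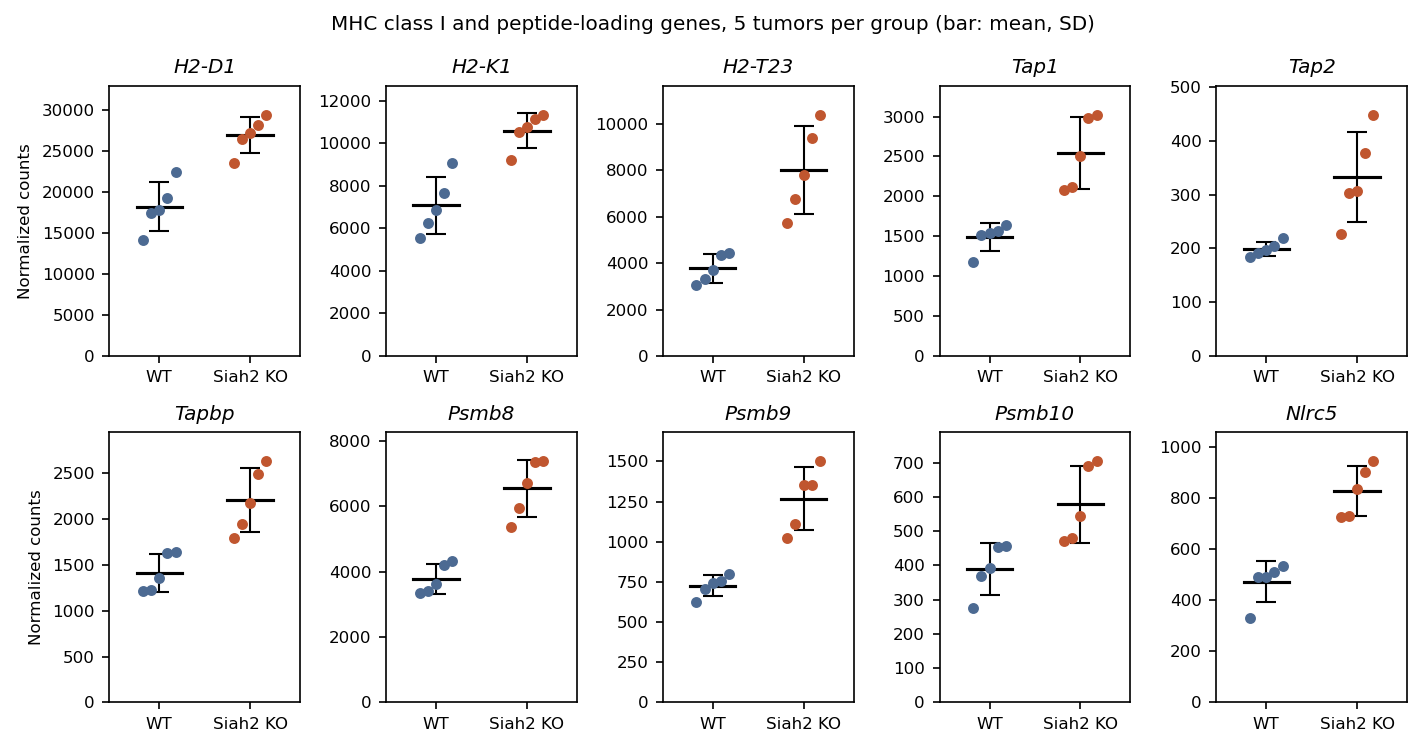
Normalized counts (vertical axes, from 0) of the 10 class I genes in each of 5 WT and 5 *Siah2* KO tumors, 1 point per tumor, with the mean and SD as bars. Every KO tumor lies above every WT tumor for each gene, with the narrowest gap for *H2-K1*, where the lowest KO value was 1.02 times the highest WT value.

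The classical heavy chains *H2-D1* and *H2-K1*, which present peptides to CD8+ T cells, rose by about the same amount. *H2-D1* counted 17784, 17425, 14186, 22518 and 19295 in WT2 to WT6, and 27164, 26463, 29432, 28178 and 23507 in KO1, KO2, KO3, KO5 and KO6. The groups did not overlap, and WT5 came closest to the KO tumors. The means were 18242 ± 3029.9 and 26949 ± 2225 (SD, n = 5 each), and the log2 fold change was 0.58 ± 0.13 (SE; limma adjusted p = 0.0048). *H2-K1* counted 6854, 6246, 5563, 9093 and 7657 in the WT tumors and 10523, 9233, 11345, 11130.5 and 10759 in the KO tumors. The lowest KO tumor, KO2, was 1.02 times the highest WT tumor, WT5. The log2 fold change was 0.60 ± 0.13 (SE; limma adjusted p = 0.0053). Class I heavy chain genes are close relatives, and how far their probes share signal was not tested.

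*H2-T23*, which encodes Qa-1, showed the largest change of the 10 genes. Qa-1 presents leader peptides of other class I molecules to the CD94/NKG2 receptors of NK cells and T cells. *H2-T23* counted 3069, 3699, 3302, 4354 and 4453 in the WT tumors and 7778, 6767, 10386, 9388 and 5739 in the KO tumors. KO3 and KO5 were highest and KO6 was lowest among the KO tumors. The means were 3775 ± 617 and 8012 ± 1891 (SD, n = 5 each), and the change on the log2 scale was 1.07 ± 0.18 (SE; limma adjusted p = 0.0013).

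Both subunits of the peptide transporter rose. *Tap1* counted 1182, 1542, 1517, 1569 and 1635 in the WT tumors, where WT2 stood apart at the low end. In the KO tumors it counted 2508, 2113, 3021, 2979.9 and 2083. Its log2 fold change was 0.76 ± 0.14 (SE; limma adjusted p = 0.0022), and 0.68 without WT2. *Tap2*, the partner of *Tap1* in the transporter, counted 197, 219, 205, 184 and 191 in the WT tumors and 307, 303, 448, 378 and 226 in the KO tumors. The WT tumors were close together, with a highest value 1.19 times the lowest, while the KO tumors spread over 1.98 times. *Tap2* changed by 0.70 ± 0.17 on the log2 scale (SE; limma adjusted p = 0.0069).

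*Tapbp*, whose product bridges the transporter and the empty heavy chain, rose by 0.64 ± 0.14 on the log2 scale (SE; limma adjusted p = 0.0048). It counted 1217, 1362, 1229, 1626 and 1639.6 in the WT tumors and 2171, 1952, 2629, 2494 and 1795 in the KO tumors. WT5 and WT6 were the highest WT tumors and KO6 was the lowest KO tumor.

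The 3 catalytic subunits that turn a proteasome into an immunoproteasome rose as well. *Psmb8* counted 3358, 3631, 3395, 4336 and 4193 in the WT tumors and 6724, 5941, 7372, 7345 and 5379 in the KO tumors. *Psmb9* counted 624, 745, 709, 798 and 755 in the WT tumors and 1355, 1112, 1500.2, 1355 and 1024 in the KO tumors. The KO tumors were well apart from the WT tumors for both, and the log2 fold changes were 0.79 ± 0.12 for *Psmb8* and 0.80 ± 0.12 for *Psmb9* (SE; limma adjusted p = 0.00095 for each). *Psmb10* counted 275, 453, 391, 369 and 458 in the WT tumors and 543, 481, 703, 691 and 471 in the KO tumors. KO6 and KO2 were close to WT6 and WT3. The change of *Psmb10*, 0.57 ± 0.17 (SE; limma adjusted p = 0.025), was no longer called without KO3 (adjusted p = 0.061) or without KO5 (adjusted p = 0.056).

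*Nlrc5*, the transactivator of class I genes, counted 332, 491, 492, 536 and 509.9 in the WT tumors and 835, 724, 943, 902 and 731 in the KO tumors. WT2 was far below the other WT tumors, and the KO tumors lay well above all of them. The means were 472 ± 80.5 and 827 ± 98.8 (SD, n = 5 each), and the log2 fold change was 0.82 ± 0.15 (SE; limma adjusted p = 0.0017).

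The calls depended on how the tumors were scaled, while the direction did not. Scaled to the same median of the endogenous genes, which lowered the median of all genes by 0.25 (log2), 8 of the 10 were called higher, against 21.2% of all genes. *H2-K1* (0.33, limma adjusted p = 0.051) and *Psmb10* (0.30, limma adjusted p = 0.093) were lost. After quantile normalization 8 were called, against 19.9% of all genes, and *Tapbp* (0.13, limma adjusted p = 0.28) and *Psmb10* (0.22, limma adjusted p = 0.24) were lost. When the reference gene scaling was removed and the positive control probes were used in its place, none of the 10 was called, against 7.79% of all genes, and *H2-T23* came closest (0.91, limma adjusted p = 0.066). The median log2 fold change of the 10 was then 0.57. Their SE lay between 0.31 and 0.34, beside 0.12 to 0.18 with the deposited scaling. The median of the 10 exceeded that of all genes by 0.49 with the deposited scaling, by 0.47 and 0.44 with the median and quantile settings, and by 0.49 with the positive controls.

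Markers of other cells also differed between the groups, and not all in the same direction. Of all 770 genes, 241 (31.3%) were called higher and 75 lower. Of 8 genes found in leukocytes in general, 7 rose and *Cd37* did not pass the test (log2 fold change 0.01). The largest was *Itgb2*, an integrin chain of leukocytes, at 1.16, and *Ptprc*, which encodes CD45, changed by 0.78. Their summed level ran from 5749 to 6965 in WT tumors, and the KO tumors ran from 8611 to 13049.9. Of 8 T cell genes 5 rose, the largest change being that of *Cd3g*, a chain of the T cell receptor complex, at 0.93. *Cd2* (0.72, limma adjusted p = 0.21), *Cd5* (-0.02) and *Cd6* (-0.23) did not pass the test. The summed level of the 8 was 835 to 1112 in WT tumors and 1167 to 1965 in KO tumors. Of 6 macrophage genes *Cd68* and *Msr1* rose, *Mrc1* fell by 0.89 on the log2 scale, and the summed level overlapped, with 17919 to 23837 in WT tumors and 17665 to 33828 in KO tumors.

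Among stromal genes, all 4 fibroblast genes fell, beside 75 of all 770 genes called lower. The changes of the 4 ran from *Col1a1*, a collagen chain, at -0.41 to *Fap*, a protease of activated fibroblasts, at -1.97 (log2). Their summed level was 16494 to 21344 in WT tumors and 10332 to 12326 in KO tumors. Of 6 endothelial genes *Pecam1* rose, *Cdh5* and *Vwf* fell and 3 did not pass the test, and the summed level was 700.4 to 809 in WT tumors and 676 to 783 in KO tumors. Only 3 of the 9 melanocytic markers listed had a probe here. *S100b* ran from 6.29 to 26.7 in WT tumors, and in KO tumors it stayed near the floor, from 1.03 to 2.51, *Cspg4* fell by 0.87 on the log2 scale, *Mcam* did not pass the test (-0.17), and the summed level of the 3 was 438 to 594 in WT tumors and 224 to 405 in KO tumors. The part of these shifts in the class I result was not tested.

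Relative to the leukocyte genes, none of the 10 class I genes was called. For this fit the median log2 value of the 8 leukocyte genes was taken from every gene in each tumor. Of all genes, 5.71% were then called higher and 51.6% lower. *H2-T23* was highest at 0.27 (95% interval -0.03 to 0.58; limma adjusted p = 0.12) and *Psmb10* lowest at -0.23 (-0.60 to 0.15). *Nlrc5* was at 0.02 (-0.30 to 0.35), and *H2-D1* at -0.22 (-0.53 to 0.09). The median of the 10 was -0.06, beside -0.56 for all genes. The intervals were wide enough to hold differences of either sign, so that equal change with the leukocyte genes was not shown.

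**Figure D2:**
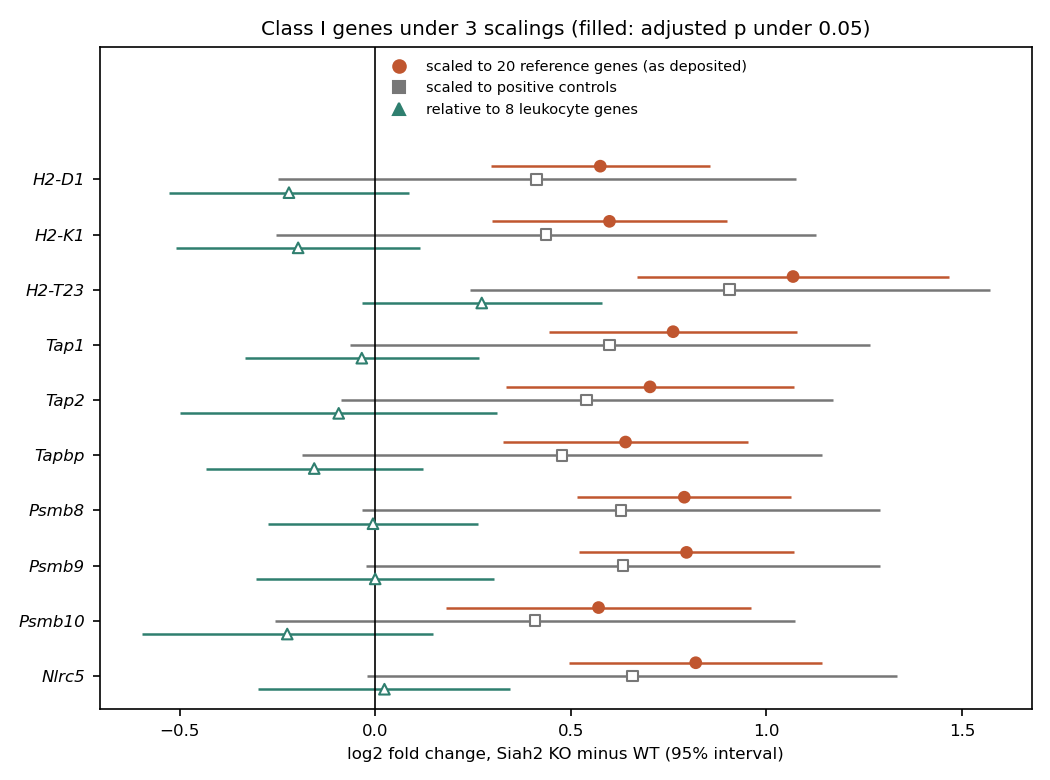
Log2 fold change of each class I gene, *Siah2* KO minus WT (horizontal axis), with its 95% interval, under the deposited scaling to reference genes (circles), scaling to the positive controls (squares) and relative to 8 leukocyte genes (triangles), in 5 tumors per group. Filled symbols have a limma adjusted p under 0.05, and they are the 10 circles.

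The class I genes varied together from tumor to tumor. KO3 had the highest value for all 10 genes, KO5 was among the 2 highest for 9, KO6 was the lowest KO tumor for 8, and WT2 was the lowest of all tumors for 7. After the group means were taken away, the Pearson r of 2 class I genes had a median of 0.75 over the 45 pairs and 10 tumors, from -0.03 for *H2-K1* with *Tap2* to 0.98 for *H2-T23* with *Tapbp*. The median r was 0.23 over the 180901 pairs of the 602 genes with a mean of at least 20. Each gene's r with the mean of the other members lay between 0.47 (*H2-K1*) and 0.99 (*H2-T23*). The tumors share their scaling factor across genes, and the r of the class I genes with that factor was between 0.10 and 0.62. The median of the leukocyte genes followed the mean of the class I genes with r = 0.81 and a Spearman rho of 0.90 (r = 0.88 without KO3 and KO6, the tumors farthest from the median of the class I mean).

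**Figure D3:**
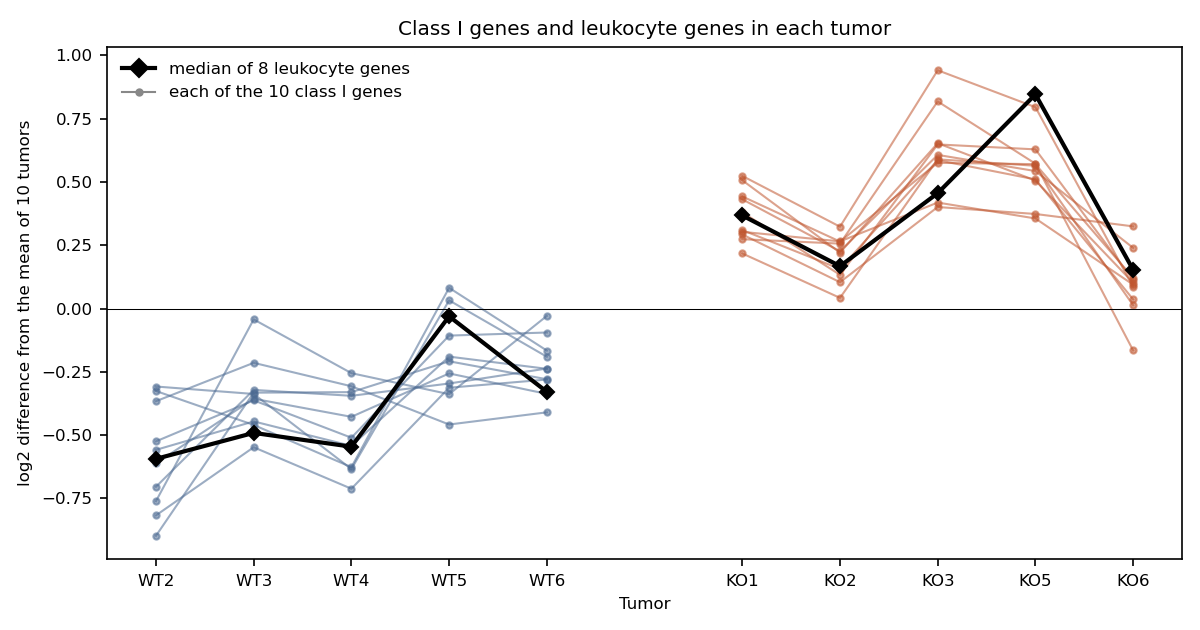
Log2 difference of each tumor from the mean of all 10 tumors (vertical axis) for each of the 10 class I genes (thin lines) and for the median of 8 leukocyte genes (diamonds), in tumors named on the horizontal axis; lines join the values of 1 gene and carry no order in time. KO3 is highest for every class I gene, whereas KO5 is highest for the leukocyte median.

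Among the 592 other genes with a mean of at least 20, the 5 most like the mean of the class I genes included *Irf8* (r = 0.95), *Cd274* (r = 0.92), *Casp1* (r = 0.92) and *Cd86* (r = 0.92), again on deviations from the group means over 10 tumors. Spearman rho of these 4 lay between 0.93 and 0.96, and without KO3 and KO6 the r were 0.91, 0.86, 0.90 and 0.91. *Irf8* encodes a transcription factor of myeloid cells, *Cd274* encodes the checkpoint ligand PD-L1, *Casp1* an inflammatory protease and *Cd86* a costimulatory ligand. They are given as a description of the 10 tumors.

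Of 7 genes described here on the way from interferon gamma to class I, 4 rose and 3 did not pass the test. Of all genes, 31.3% were called higher. Relative to the leukocyte genes, 1 of the 7 was called higher and 3 lower, beside 5.71% and 51.6% of all genes. *Ifng*, the cytokine itself, counted 16.6, 10.1, 13.2, 11.6 and 6.65 in the WT tumors and 51.9, 29.7, 77.0, 61.6 and 25.3 in the KO tumors. The WT values of *Ifng* were thus near background. Every KO tumor was above every WT tumor, and the log2 fold change was 1.92 ± 0.33 (SE; limma adjusted p = 0.0015). *Irf1* and *Irf2*, both regulators of class I promoters, changed by 0.91 and 0.51, and *Socs1*, which dampens the signal, by 0.98. The receptor chain *Ifngr1* (-0.00070, limma adjusted p = 0.999) and the kinases *Jak1* (0.05) and *Jak2* (0.18) did not pass the test. *Irf1* followed the class I mean with r = 0.81 (rho = 0.83), while *Ifng* gave r = 0.40 (rho = 0.41). Without KO3 and KO6 the r fell to 0.64 for *Irf1* and to -0.12 for *Ifng*. Such an r was not particular to *Irf1*. The macrophage gene *Msr1* gave r = 0.90 and the proteasome subunit *Psma2* 0.85 (0.83 and 0.92 without KO3 and KO6). Other listed genes did not follow the class I mean, such as *Cd3e* (r = -0.02).

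All 5 genes of receptors that read class I molecules rose. *Cd8a* and *Cd8b1*, the chains of the CD8 coreceptor, changed by 1.13 ± 0.21 and 1.76 ± 0.33 on the log2 scale (SE). *Cd8b1* was near background in WT tumors, from 4.26 to 16.85, and ran from 27.35 to 46.87 in KO tumors. *Klrd1*, which encodes CD94, changed by 0.71 ± 0.14, and its partners *Klrc1* and *Klrc2*, the NKG2 chains that read Qa-1, by 1.49 ± 0.14 and 0.93 ± 0.16. *Klrc1*, the inhibitory partner, counted 128, 136, 139.8, 145 and 158 in the WT tumors and 440.2, 358, 447, 489 and 291 in the KO tumors. Each of the 5 was called higher, beside 31.3% of all genes, and separated the groups without overlap, beside 24.5%. Their limma adjusted p lay between 0.00017 and 0.0025. Relative to the leukocyte genes, *Klrc1* (0.70, limma adjusted p = 0.0017) and *Cd8b1* (0.97, limma adjusted p = 0.0066) were called higher. *Cd8a* (0.33), *Klrc2* (0.14) and *Klrd1* (-0.09) were then not called.

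Of 8 other class I and class I-like genes 2 were called higher and none lower, a share near the 31.3% of all genes called higher. *H2-M3*, which presents formylated peptides, counted 303, 323, 287, 359 and 358 in the WT tumors and 532, 507, 641, 552 and 414 in the KO tumors (log2 fold change 0.69 ± 0.13, SE; limma adjusted p = 0.0019). *H2-Q10* was near background, from 6.29 to 16.6 in WT tumors and from 15.0 to 22.0 in KO tumors, with overlap (0.86, limma adjusted p = 0.010). *H2-Q1* and *H2-Q2* had means from 1.43 to 3.13 in either group. *Mr1* (0.20) and *Cd1d1* (0.46), which present metabolites and lipids, *Cd1d2* (1.53, limma adjusted p = 0.066) and *Mill2* (-0.45, limma adjusted p = 0.058) did not pass the test.

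The proteasome subunits that are not specific to the immunoproteasome were not called. *Psma2* (0.19, limma adjusted p = 0.10), *Psmb7* (0.18, limma adjusted p = 0.075) and *Psmd7* (0.20, limma adjusted p = 0.056) did not pass the test, and their changes lay below the 0.24 median of all genes. For *Psmb7* and *Psmd7*, as for the class I genes, every KO tumor was still above every WT tumor (two-sided exact permutation p = 0.0079 for each). *Psmb7* counted 1207, 1220.2, 1167, 1169 and 1257 in the WT tumors and 1439, 1260.4, 1411, 1349 and 1350.2 in the KO tumors.

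Of 9 class II genes, whose products present peptides to CD4+ T cells, 2 were called higher, 1 lower and 6 not, beside 241, 75 and 454 of all 770 genes. *H2-Ab1*, a class II chain (0.59, limma adjusted p = 0.020), and *Cd74*, the invariant chain (0.46, limma adjusted p = 0.049), rose. *H2-DMb2*, a chain of the peptide exchange factor, counted 181, 202, 225, 195 and 192 in the WT tumors and 93.0, 124, 119, 155 and 119 in the KO tumors, and it fell by 0.72 on the log2 scale (limma adjusted p = 0.0019). The related *H2-DMb1* was at 0.46 (limma adjusted p = 0.051). *Ciita*, the class II transactivator, was at 0.21 (limma adjusted p = 0.46).

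**Figure D4:**
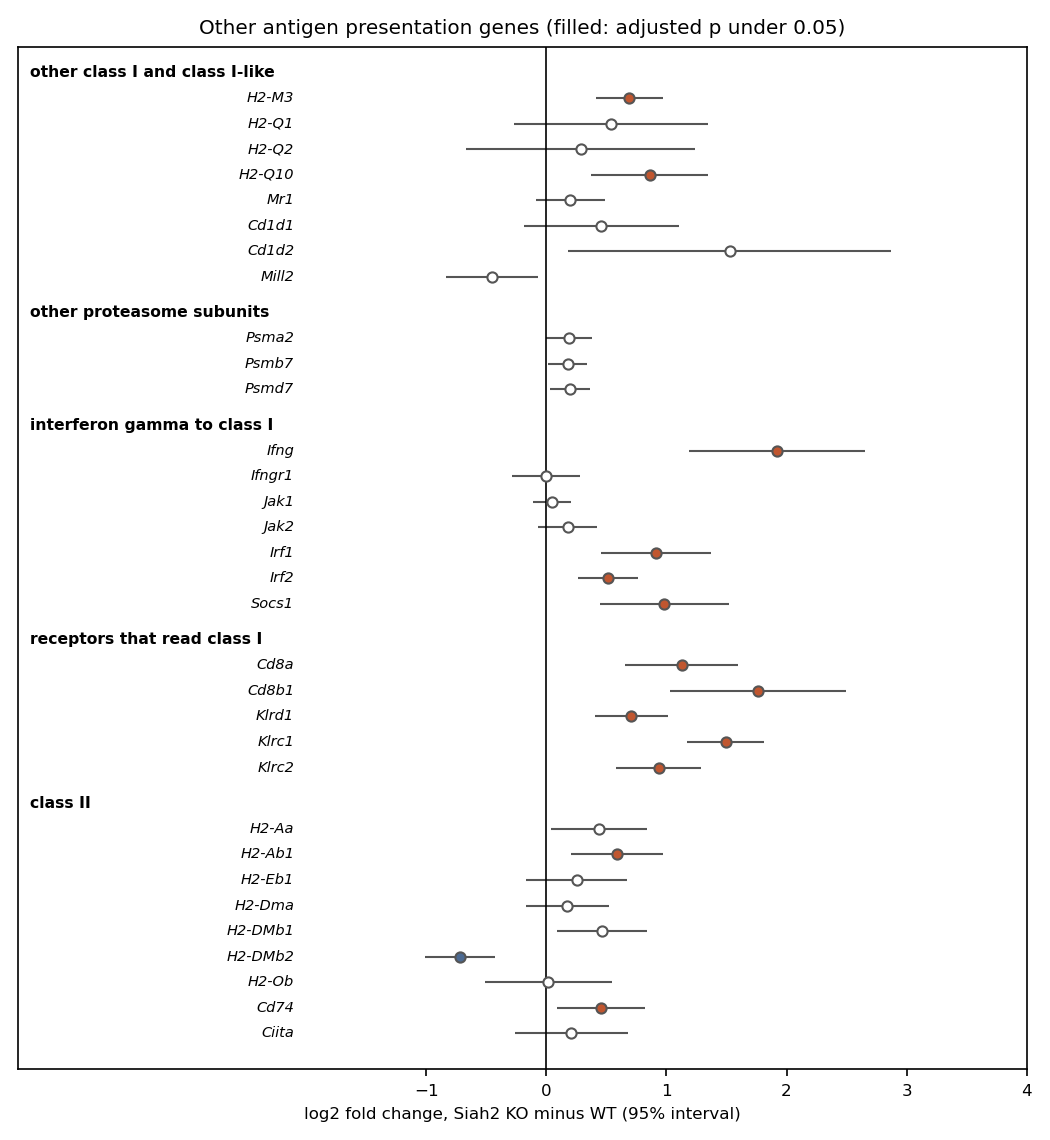
Log2 fold change, *Siah2* KO minus WT (horizontal axis), with its 95% interval, of genes of other antigen presentation lists in 5 tumors per group. Filled points have a limma adjusted p under 0.05, orange higher and blue lower; all 5 receptor genes are filled orange, and *H2-DMb2* is the only blue point.

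Log2 ratios of 2 genes within a tumor, in which the scaling cancels except for the pseudocount of 1 added to each value, were compared for 4 pairs by two-sided exact permutation tests, adjusted over the 4. *Psmb10* replaces *Psmb7* when an immunoproteasome is built. Their log2 ratio was -1.65 ± 0.28 in WT tumors and -1.25 ± 0.25 in KO tumors (SD, n = 5 each), a difference of 0.39 ± 0.17 (SE; exact p = 0.040, adjusted p = 0.079). *Nlrc5* over *Ciita*, the class I against the class II transactivator, differed by 0.61 ± 0.25 (SE; exact p = 0.032, adjusted p = 0.079). For both ratios 4 of 5 KO tumors lay outside the WT range, and neither passed after adjustment. *H2-K1* over *H2-D1* differed by 0.02 ± 0.07 (SE; exact p = 0.82). *Tap1* over *Tapbp* differed by 0.12 ± 0.07 (SE; exact p = 0.13, adjusted p = 0.18), and all KO tumors lay inside the WT range.

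**Figure D5:**
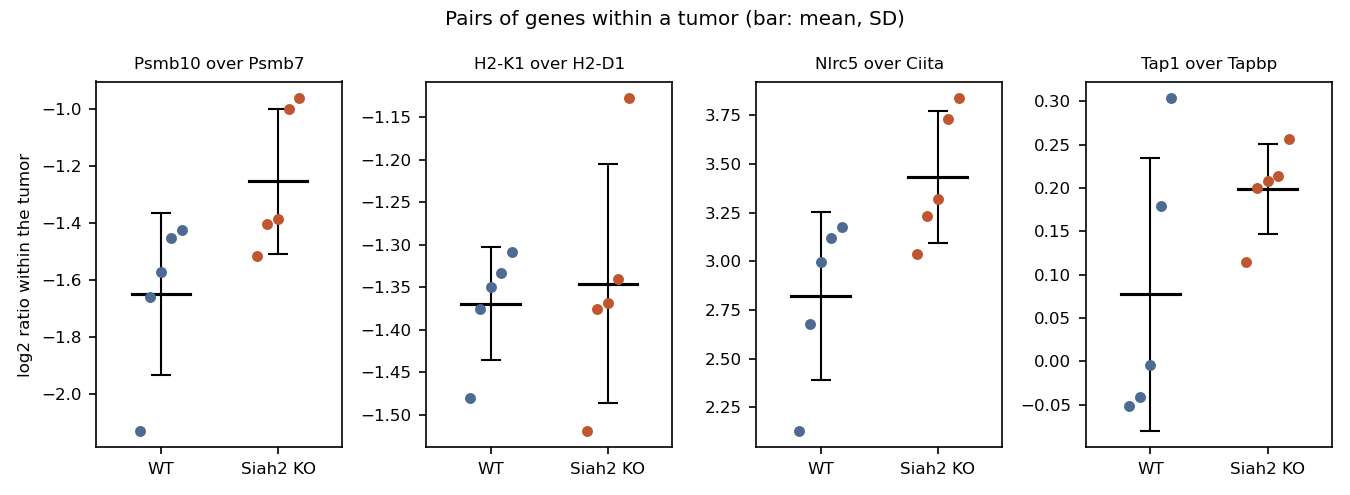
Log2 ratio of the normalized counts, each plus 1, of 2 genes within each tumor (vertical axes, which do not start at 0) in 5 WT and 5 *Siah2* KO tumors, 1 point per tumor, with the mean and SD as bars. *Psmb10* over *Psmb7* and *Nlrc5* over *Ciita* are higher in 4 of 5 KO tumors than in any WT tumor.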

How the data were processed

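Tumor RNA was counted on the NanoString panel, and what the authors deposited is a signal per probe, in normalized counts. They ran nSolver, checked the quality of each assay and divided out the geometric mean of the counts of 20 reference genes. In all 10 tumors the low values lay on equal steps above an offset, within 0.1 of a step, so a background constant had been taken off before scaling and the raw counts were not recovered. From these values log2(value + 1) was tested over 770 genes, KO tumors against WT tumors, in a linear model with moderated variances (limma 3.58.1, R 4.3.3) and Benjamini-Hochberg adjustment, after a check on simulated data. Exact permutation tests and ratios used Python 3.11.15. Groups came from the sample titles. A design note of the series names another line and host, and a legend gives a day earlier, so the sample labels were followed. Nothing in the labels says that tumors came from separate mice, and p-values then measure only the spread between tumors. The members and lists were chosen with earlier results of these data known. All members were named; other names were taken from the lists, of which the text names a part, and from the 5 genes most like the members' mean. A gene of a list and 1 of these 5 are not reported here. Scalings, filters, tests and left-out tumors were varied. The number of tumors limits the precision. Promoters were matched by symbol to RefSeq.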

Additional observations from a re-analysis of the deposited data

Results flagged for a closer look

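In 28 groups of 5 tumors, covering the 10 class I genes and 4 ratios, 2 held a tumor far from the other 4 by Dixon's test, where chance flags about 1 in 20 groups. Both were WT2, with 1182 normalized counts of *Tap1* (a gap of 0.74 of the range of the WT tumors) and 332 of *Nlrc5* (0.78 of the range). Without WT2 the log2 fold change was 0.68 for *Tap1* (limma adjusted p = 0.0055) and 0.70 for *Nlrc5* (limma adjusted p = 0.0018).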

How the results depend on the processing

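Every class I gene stayed higher in KO tumors under all 13 other settings and with each of 10 tumors left out, and 98 of the 100 leave-one-out results stayed called, the exceptions being *Psmb10* without KO3 or KO5. Scaling to the positive controls left 0 of the 10 called and 95 of 770 genes (60 higher, 35 lower), and the cause was not tested. The share of calls that were higher fell from 76.3% to 51.7% with median scaling (163 higher, 152 lower), 45.8% with quantile normalization (153 higher, 181 lower) and 63.2% with positive controls. Relative to the leukocyte genes, 22 of 23 alternatives called 0 of the 10, and quantile normalization, added after the data were seen with 5 other settings, called 1, *H2-T23* (0.47, adjusted p = 0.021). With a tumor left out, *Psmb10* over *Psmb7* ranged from 0.27 to 0.46, *Nlrc5* over *Ciita* from 0.44 to 0.71 and *Tap1* over *Tapbp* from 0.090 to 0.18. *Psmb10* over *Psmb7* and *Nlrc5* over *Ciita* were lowest without WT2 (exact permutation adjusted p = 0.21 each). Without WT4, *Nlrc5* over *Ciita* and *Tap1* over *Tapbp* passed (0.70 and 0.18, exact permutation adjusted p = 0.048 each). The labels share replicate numbers for 8 tumors, and nothing in the labels says what a number marks. Of the 4 same-numbered pairs 3 correlated above 0.1 (0.05 to 0.49), short of the rule that every pair must, so the numbers were not taken as a pairing; 6 of 8 tumors correlated best with their own number, which is a hint of one from the data. With the replicate block 9 of 10 class I genes and 235 genes were called, beside 9 and 232 in the same 8 tumors with no block; *Psmb10* was lost in both (adjusted p = 0.059 and 0.076). The blocked ratios were 0.45, 0.03, 0.60 and 0.18 for *Psmb10* over *Psmb7*, *H2-K1* over *H2-D1*, *Nlrc5* over *Ciita* and *Tap1* over *Tapbp*, in a design whose smallest exact permutation p is 0.125. A negative binomial test on recovered counts was planned and not run, since the low values are not whole multiples of a step from 0.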
